A study of Danio rerio with 7 samples.

Results

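The genes described here are those that make melanin, the dark pigment, and the organelle that holds it, the melanosome. They are 10 gene rows chosen by name out of the 30421 rows of the count table: the pigment enzymes tyr, tyrp1a, tyrp1b and dct, the melanosome matrix proteins pmela and pmelb, the melanosome transporters slc24a5, oca2 and slc45a2, and the regulator mitfa. All 10 names had a row. Heads of zebrafish larvae (Danio rerio) were pooled at 5 dpf (days post fertilization) and their RNA sequenced in bulk, as 3 hm41 mutant libraries and 3 wild type (WT) libraries. The labels do not say whether the hm41 larvae were homozygous, how many larvae went into a pool or whether the pools came from separate clutches, so p-values measure only the spread between these 6 libraries. The hm41 line is one that the submitters call leaky, their design text links the lesion to spock1 on chromosome 14, and the sequencing served to find it. In the RefSeq gene table of the build GRCz12tu, all 10 genes were placed and 0 lay on chromosome 14.

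In zebrafish, melanin is made in 2 kinds of cells that a larval head holds together: the melanophores of the skin, which come from the neural crest, and the pigment epithelium at the back of the eye, which comes from the optic cup. Tyrosinase, the product of tyr, carries out the rate-limiting oxidation of tyrosine, and the proteins of the tyrp1 and dct genes act on later intermediates. Pmel protein forms the fibrils on which melanin is laid down, and the transporters set the ion balance of the melanosome in which tyrosinase works. Mitfa is the transcription factor that melanophores need to form: nacre mutants, which lack it, have no skin melanophores but keep pigmented eyes.

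Total counts per library ran between 33775984 and 70534872 in hm41 and between 35073495 and 114604258 in WT. The 8 most abundant rows took most of them: outside these rows there were 2142623 to 4509187 counts in hm41 and 1664845 to 4959749 in WT. Levels are given in CPM, counts per 1000000 counts after scaling by trimmed mean of M-values (TMM), and are small for this reason. The rows carry no transcript lengths, so levels are compared between libraries and not between genes, except to say which rows weigh most in a list's sum. The library WT 67 had the lowest mean correlation with the others over 19275 genes (0.906, against 0.921 to 0.935). A row named LOC110438492 held 2743068, 2589780 and 5141165 counts in hm41 70, hm41 71 and WT 68 and at most 6 in the others, which divides the libraries into 2 subsets that do not follow genotype. The gene spock1 averaged 1.74 ± 0.420 CPM in hm41 and 2.25 ± 0.464 CPM in WT (SD, n = 3 each), a log2 difference of -0.38 (adjusted p = 0.594, edgeR; quasi-likelihood F-test, adjusted by the Benjamini-Hochberg method over all tested genes).

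None of the melanin genes passed the test between hm41 and WT heads. Of the 10 genes, 9 had enough counts to be tested and 0 of them were called at an adjusted p under 0.05 by edgeR, against 0.0571% of all 19275 genes tested. At an unadjusted p under 0.05 there were also 0 of 9, where 10.4% of all tested genes passed, and DESeq2 called 0 of the 8 to which it gave an adjusted p and limma-voom 0 of 9, beside 2.2% and 0.0467% of all genes with an adjusted p from each. For 0 of the 9 did the hm41 libraries lie apart from the WT libraries, a lack of overlap seen in 16.5% of all tested genes. The fitted log2 fold changes of hm41 over WT were all below 0, between -0.56 and -0.04, with a median of -0.18 beside -0.02 for all tested genes. Of all tested genes 52.1% were below 0. The signs of the melanin genes are not independent, since several of these genes were high or low in the same libraries. With library totals alone in place of TMM, which moved the median of all genes to 0.20, tyrp1a, dct, pmelb and slc45a2 were above 0. For 8 of the 9 the 95% interval stayed within a 2-fold change in either direction (within 1 on the log2 scale), a width that 59.8% of all tested genes met. In bulk heads, a change in the number of cells of a type and a change in RNA per cell cannot be told apart. Each value reflects the 2 together and holds for neither alone.

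**Figure D1:**
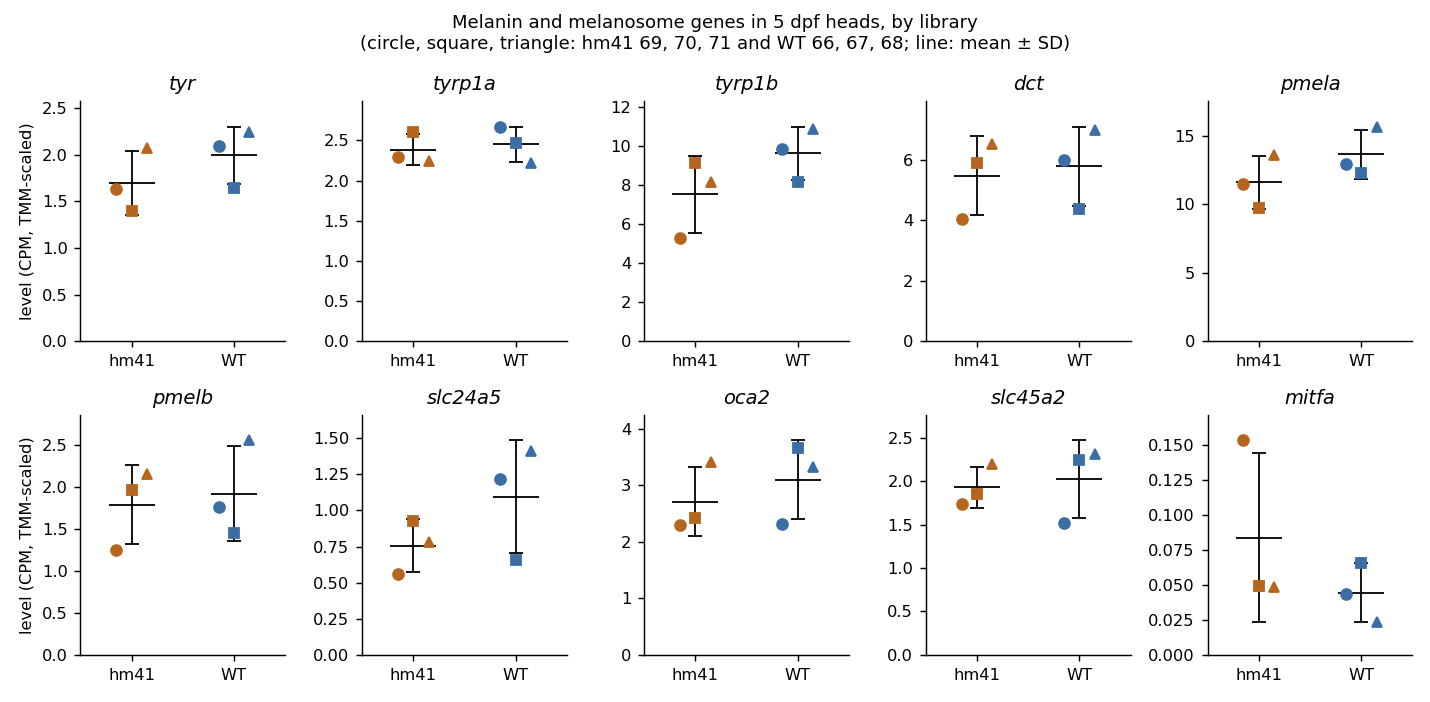
Level of each of the 10 genes in CPM after TMM scaling (vertical axes from 0), with the 3 hm41 libraries on the left and the 3 WT libraries on the right of each panel. Horizontal lines are means and bars are SDs over 3 libraries. The groups overlap in every panel.

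Among the enzymes, tyr itself had 1.63, 1.39 and 2.07 CPM in hm41 69, 70 and 71, against 2.09, 1.65 and 2.25 CPM in WT 66, 67 and 68. The lowest WT library lay beside the hm41 values, so the groups overlapped. Its log2 fold change was -0.26 ± 0.225 (SE; 95% interval -0.73 to 0.21; adjusted p = 0.735 by edgeR). The counts behind these levels were 64 to 113 in hm41 and 50 to 191 in WT.

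The paralogs tyrp1a and tyrp1b encode 2 forms of tyrosinase-related protein 1, which stabilizes tyrosinase and takes part in later steps of eumelanin synthesis. For tyrp1b the levels were 5.29, 9.10 and 8.15 CPM in hm41 69, 70 and 71, against 9.86, 8.15 and 10.9 CPM in WT 66, 67 and 68. The library hm41 69 was the lowest, the others overlapped, and WT 68 was the highest. The log2 fold change was -0.36 ± 0.190 (SE; 95% interval -0.75 to 0.04; adjusted p = 0.541 by edgeR). It was -0.16 without hm41 69 and -0.52 without hm41 70. For tyrp1a the levels were 2.30, 2.60 and 2.25 CPM in hm41, against 2.66, 2.47 and 2.22 CPM in WT, in the same library order. These were nearly level over the 6 libraries, with a log2 fold change of -0.04 ± 0.193 (SE; 95% interval -0.44 to 0.37; adjusted p = 0.97 by edgeR). Of the 60 values of the 10 genes in the table, 2 were not whole numbers, both in oca2. The submitters' processing notes name RSEM among the tools but do not say how reads that fit both copies of a gene pair were placed.

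Dopachrome tautomerase, the product of dct, converts dopachrome and is an early marker of the melanophore lineage. It had 4.04, 5.90 and 6.54 CPM in hm41 69, 70 and 71, against 6.02, 4.39 and 6.99 CPM in WT 66, 67 and 68. The lowest values of both groups were close to each other, as were the highest. Its log2 fold change was -0.09 ± 0.199 (SE; 95% interval -0.51 to 0.33; adjusted p = 0.922 by edgeR). It was 0.08 without hm41 69 and -0.24 without WT 67.

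The matrix gene pmela, which is mutated in the fading vision line with pale eyes, had the most counts of the 10 genes, 451 to 787 in hm41 and 373 to 1335 in WT. Its levels were 11.5, 9.71 and 13.6 CPM in hm41 69, 70 and 71, against 13.0, 12.3 and 15.7 CPM in WT 66, 67 and 68. The hm41 71 value exceeded 2 of the 3 WT values. The log2 fold change was -0.24 ± 0.171 (SE; 95% interval -0.60 to 0.12; adjusted p = 0.671 by edgeR), the narrowest interval of the tested genes. Its paralog pmelb had 1.25, 1.96 and 2.15 CPM in hm41, against 1.75, 1.45 and 2.55 CPM in WT, in the same order. The log2 fold change of pmelb was -0.12 ± 0.250 (SE; adjusted p = 0.916 by edgeR), and it was 0.15 without WT 68 and -0.26 without WT 67.

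Of the transporters, slc24a5 encodes the sodium, calcium and potassium exchanger that is mutated in golden zebrafish, whose melanosomes are fewer, smaller and paler. It had 0.562, 0.925 and 0.781 CPM in hm41 69, 70 and 71, against 1.22, 0.660 and 1.41 CPM in WT 66, 67 and 68. WT 66 and WT 68 were above every hm41 library, while WT 67 lay among them. This was the lowest fold change among the 9 tested genes, a log2 value of -0.56 ± 0.306 (SE; 95% interval -1.20 to 0.08; adjusted p = 0.553 by edgeR). It rested on few counts, 22 to 75 in hm41 and 20 to 120 in WT, and its interval is the one that reached past a 2-fold decrease.

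The other transporters showed smaller values. The melanosomal membrane protein of oca2, which raises melanosome pH and whose loss causes oculocutaneous albinism in people, had 2.30, 2.42 and 3.42 CPM in hm41 69, 70 and 71, against 2.32, 3.66 and 3.32 CPM in WT 66, 67 and 68. Its log2 fold change was -0.18 ± 0.215 (SE; 95% interval -0.63 to 0.27; adjusted p = 0.827 by edgeR). The gene slc45a2, mutated in albino zebrafish, had 1.74, 1.85 and 2.20 CPM in hm41, against 1.51, 2.24 and 2.32 CPM in WT. Its log2 fold change was -0.06 ± 0.225 (SE; 95% interval -0.53 to 0.41; adjusted p = 0.955 by edgeR). WT 66 lay between the lower hm41 libraries for oca2 and below every hm41 library for slc45a2, so the groups overlapped.

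The regulator mitfa was close to the limit of detection and did not pass the filter on low counts. It had 6, 4 and 2 counts in hm41 69, 70 and 71, against 4, 2 and 2 counts in WT 66, 67 and 68. The summed counts were 12 in hm41 and 8 in WT, a ratio of 1.92 per scaled total with an exact 95% interval of 0.723 to 5.42, which covers counting error only. In the fit without the filter its log2 fold change was 0.94 ± 1.25 (SE; adjusted p = 0.863 by edgeR). A difference in mitfa was thus not detectable at this depth, while its relative mitfb, which is expressed in the pigment epithelium of the eye, had 59 to 184 counts in hm41 and 108 to 256 in WT.

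**Figure D2:**
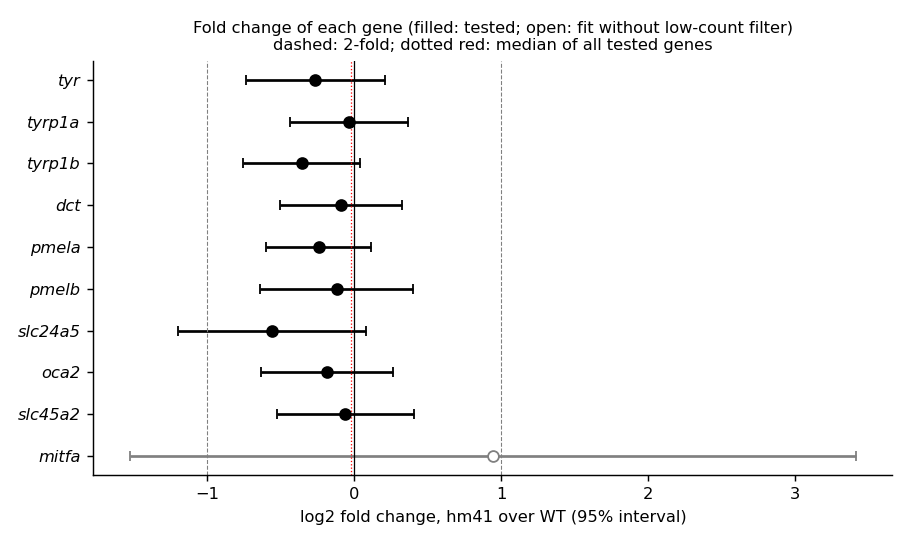
Log2 fold change of hm41 over WT with its 95% interval for each gene; filled points are the 9 tested genes, and the open point is mitfa in the fit without a filter on low counts. Every interval crosses 0, 8 of the 9 tested genes stay within the dashed 2-fold lines, and slc24a5 passes the lower one.

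Several melanin genes were high or low in the same libraries. Averaged over the 9 tested genes after standardizing each on the log2 scale, hm41 69 was lowest (-1.03) and WT 68 highest (0.88), and the other 4 libraries lay between -0.22 and 0.31 with hm41 71 above WT 66 and WT 67. Of the 36 pairs among the 9 genes, 28 (77.8%) had a positive Pearson r over the 6 libraries, with a median of 0.41, beside 49.9% positive among all pairs of tested genes. The share is given here as a description, since the libraries share genotype and scaling. The pairs most alike were dct with pmelb (r = 0.96), tyr with pmela (r = 0.94) and oca2 with slc45a2 (r = 0.92). The gene tyrp1a did not follow the rest, with r = -0.19 to the mean of all 9 genes, tyrp1a included. Among 12956 other genes with an assigned symbol and a mean of at least 20 counts, the profiles most like this mean were those of dgcr14 (r = 0.998), scel (0.990), fyco1a (0.986), the replication helicase gene mcm2 (0.980) and cdc26 (0.979), again over 6 libraries. They were picked as the highest r of this ranking, so the size of these values is a result of the selection. A link of these genes to melanin was not tested.

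Markers of the retinal pigment epithelium, summed, had their lowest and highest libraries in common with the melanin genes, but single markers differed. The summed level of the 10 melanin genes was 30.8, 35.9 and 41.2 CPM in hm41 69, 70 and 71, against 40.5, 37.0 and 47.6 CPM in WT 66, 67 and 68. The largest rows in this sum were pmela, with means of 11.6 CPM in hm41 and 13.7 CPM in WT, and tyrp1b, with 7.51 and 9.62 CPM. The 18 matched epithelial markers summed to 34.9, 49.8 and 46.8 CPM in hm41, against 39.9, 43.3 and 56.1 CPM in WT. The lowest library was hm41 69 and the highest WT 68 for both lists. Among single genes, 4 of the 9 tested melanin genes and 4 of the 15 tested markers had both of these extremes. The share of all tested genes with both was not counted. These libraries were also picked from the same values, so the counts are description only. The defining marker rpe65a, the isomerase of the visual cycle, was named after its values were seen. It had 6.79, 12.5 and 11.1 CPM in hm41, against 9.13, 9.34 and 16.6 CPM in WT. The largest rows in the epithelial sum were rpe65a, with means of 10.1 CPM in hm41 and 11.7 CPM in WT, and rbp4, with 8.38 and 9.63 CPM. Both were lowest in hm41 69 and highest in WT 68, so the extremes of the sum rest largely on them. The marker mitfb was instead lowest in hm41 71 and highest in WT 67, and rpe65b lowest in WT 67 and highest in hm41 71. Of the 15 tested epithelial markers 0 were called, 0 had an unadjusted p under 0.05, and their median log2 fold change was -0.08. The smallest p-values there belonged to mitfb (-0.36 ± 0.241, SE), rpe65b (0.32 ± 0.261) and the retinol carrier rbp4 (-0.21 ± 0.170). The part of eye pigment cells in the melanin values was not tested.

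**Figure D3:**
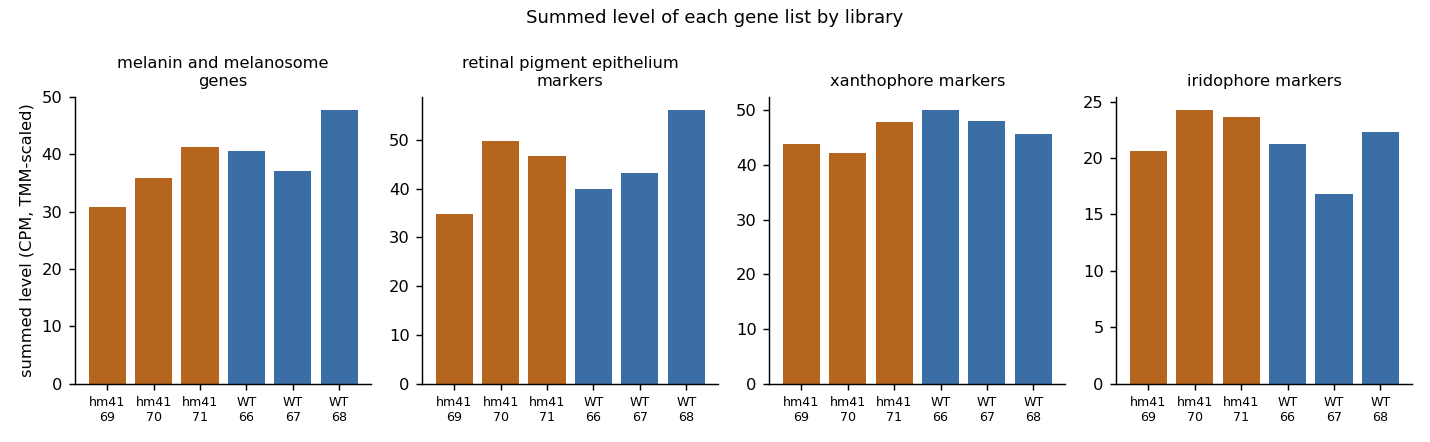
Summed level in CPM after TMM scaling (vertical axes from 0) of the melanin genes and of marker lists of the retinal pigment epithelium, xanthophores and iridophores, one bar per library with hm41 on the left. The melanin and epithelial sums are both lowest in hm41 69 and highest in WT 68, and the melanin sums of the 2 genotypes overlap. The largest rows of the epithelial sum are rpe65a and rbp4, and most of the xanthophore sum is mycbp2.

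Of the lists for the other pigment cells of the zebrafish skin, that of the yellow xanthophores held called genes and that of the silvery iridophores held none. The lists were chosen with earlier results of these data known, so the shares here are description only. In the xanthophore list 2 of 15 tested genes were lower in hm41 by edgeR, where 0.0415% of all tested genes were called lower. These were the receptor gene csf1ra, with 0.153, 0.111 and 0.146 CPM in hm41 against 1.03, 1.29 and 1.81 CPM in WT, and aox5, with 0.0511, 0.0123 and 0.0976 CPM in hm41 against 0.734, 0.495 and 0.611 CPM in WT. Both fell, with log2 fold changes of -3.36 and -3.71 (adjusted p = 0.000171 and 0.0107 by edgeR). The call of aox5 was lost without WT 66 or hm41 70 (adjusted p = 0.104 and 0.126) and by limma-voom (adjusted p = 0.105). DESeq2 gave neither csf1ra nor aox5 an adjusted p (unadjusted p = 5.9e-12 and 9.2e-07), so it called neither. The pteridine enzyme gene gch2 stood at -1.07 ± 0.294 on the log2 scale (SE; adjusted p = 0.193, edgeR), and over the whole list 5 genes had an unadjusted p under 0.05 and lower values, where 5.05% of all tested genes did. The difference between these genes and the melanin genes was not tested. The list's sum, 42.2 to 47.9 CPM in hm41 and 45.6 to 49.99 CPM in WT, overlapped, and its median log2 fold change was -0.07. Most of this sum was 1 gene, mycbp2, named after its values were seen, with means of 24.8 CPM in hm41 and 26.3 CPM in WT. The means of csf1ra were 0.137 and 1.38 CPM, so the sum says little about the called genes.

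The iridophore list, with genes for the purine crystals of these cells, had 0 called among 13 tested. The purine enzyme gene pnp4a had 1.99, 2.04 and 2.66 CPM in hm41, against 1.13, 0.825 and 1.42 CPM in WT, so that the lowest hm41 library exceeded the highest WT library. Its log2 fold change was 0.94 ± 0.240 (SE; adjusted p = 0.165 by edgeR). It passed without the filter on low counts (adjusted p = 0.0394) and by DESeq2 (adjusted p = 0.0429). The values of fhl2b (0.79 ± 0.376) and gbx2 (0.55 ± 0.390) were also above 0, as were those of 10 of the 13 genes (list median 0.09).

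Other genes of pigment organelle assembly and pigment cell development were read from 4 lists with 78 matched genes, of which 64 were tested. By edgeR 0 of the 64 were called, and 3 had an unadjusted p under 0.05 (4.69%, against 10.4% of all tested genes). Their median log2 fold change was -0.04.

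The list of melanosome assembly and cargo sorting includes the BLOC and HOPS complexes, which take part in melanosome formation in vertebrates. It had 28 tested genes with 15 values above and 13 below 0 (median 0.06). The groups did not overlap for 4 of the 28, 2 higher and 2 lower in hm41, beside 16.5% of all tested genes. The adaptor subunit gene ap1m1 had 5.62, 6.53 and 6.76 CPM in hm41, against 4.43, 4.59 and 4.30 CPM in WT (log2 fold change 0.51 ± 0.159, SE; adjusted p = 0.235 by edgeR). The lysosomal trafficking gene lyst had 7.61, 6.87 and 7.15 CPM in hm41, against 9.42, 9.63 and 8.72 CPM in WT (-0.36 ± 0.153; adjusted p = 0.42 by edgeR). Neither was called. The third by p, bloc1s2, had 0.536, 0.432 and 0.537 CPM in hm41, against 0.383, 0.0990 and 0.353 CPM in WT (0.71 ± 0.438).

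The list of melanosome movement and its hormones had the lowest median, -0.56 over 9 tested genes, with 7 below 0. In mammals, melanosomes are held to actin by Rab27a, melanophilin and myosin Va, and the zebrafish melanophilin gene mlpha is needed for melanosome dispersal. The myosin Va gene myo5ab had 0.383, 0.456 and 0.488 CPM in hm41, against 1.04, 0.957 and 0.670 CPM in WT. Its log2 fold change was -0.99 ± 0.327 (SE; adjusted p = 0.26 by edgeR). The melanophilin genes mlphb and mlpha had values of -0.79 ± 0.464 and -0.64 ± 0.423 (adjusted p = 0.586 and 0.633 by edgeR). These were the 3 of the 9 tested genes of the list in which every hm41 library was below every WT library; being its smallest p-values, they are a selection, and 8.44% of all tested genes showed this. Their counts were low, 7 to 37 in hm41 and 15 to 95 in WT. The other myosin Va gene, myo5aa, named after its values were seen, had 575, 943 and 396 counts in hm41 and 1094, 376 and 930 in WT, with a log2 fold change of 0.03 ± 0.172 (SE). The summed level of the list overlapped between the groups, 13.5 to 17.6 CPM in hm41 and 15.2 to 16.6 CPM in WT. Most of this sum was myo5aa, with means of 12.0 CPM in hm41 and 11.8 CPM in WT, so it says little about the list's other genes. Of its genes, 6 of the 15 matched, the receptor gene mc1r among them, were too low to be tested.

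In the list of specification and survival genes 17 were tested, with a median of -0.01. The smallest p-values were those of the neural crest gene snai2 (log2 fold change 0.50 ± 0.247, SE), of tfap2e (-0.64 ± 0.325) and of sox10 (0.39 ± 0.221), none called (adjusted p = 0.494, 0.515 and 0.574 by edgeR). The receptor kinase gene kita, on which melanophore migration and survival depend, was named after its values were seen. It had 4.90, 5.62 and 6.81 CPM in hm41, against 4.54, 5.87 and 5.57 CPM in WT (0.12 ± 0.173). Of 10 tested genes for melanosome ion, copper and cystine transport, 6 were below 0 (median -0.13). The cystine carrier slc7a11 had 18, 12 and 13 counts in hm41 and 7, 0 and 17 in WT (1.45 ± 0.709, adjusted p = 0.494 by edgeR), while the channel genes trpm7 and trpm1a had values of -0.39 ± 0.245 and -0.50 ± 0.316, which were -0.12 and -0.16 with a term for the LOC110438492 split. Neural crest and glia markers, to which sox10 also belongs, had a median of 0.39 over 7 tested genes, with mbpa at 0.46 ± 0.200 and mpz at 0.44 ± 0.210 and 0 called. Of the 7, 6 were above 0, while the marker crestin, named after its values were seen, was below 0. The list's sum did not overlap, 17.35 to 23.05 CPM in hm41 and 12.75 to 17.25 CPM in WT. Its largest row was mbpa, with means of 7.58 CPM in hm41 and 5.55 CPM in WT.

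**Figure D4:**
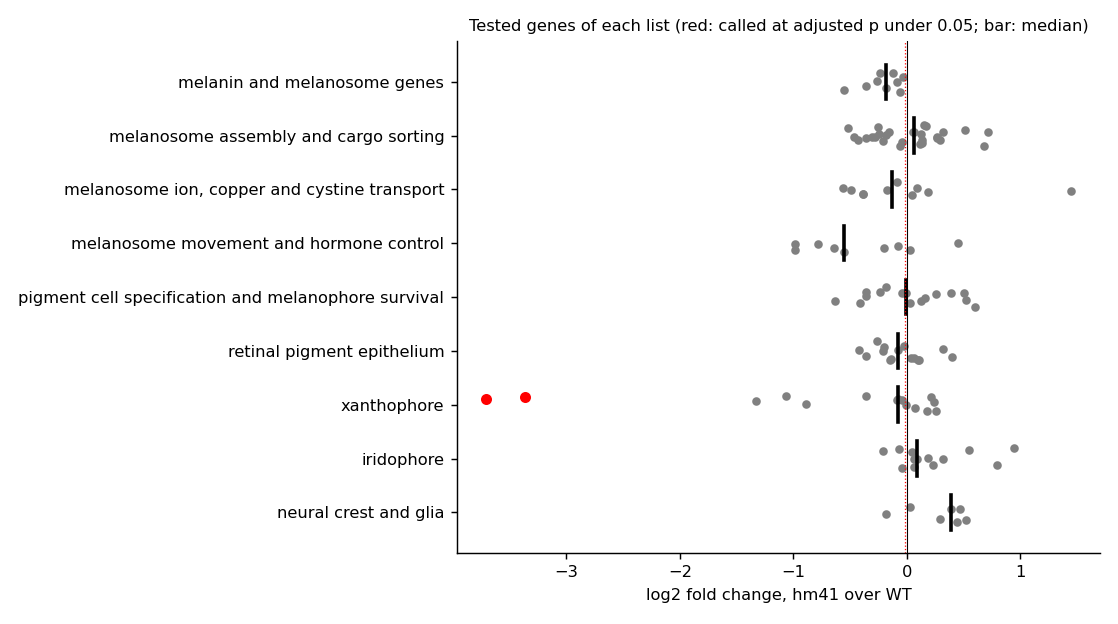
Log2 fold change of hm41 over WT for the tested genes of each list, one point per gene, with black bars for the list medians. The called genes, in red, are csf1ra and aox5 of the xanthophore list; the 9 melanin genes lie between -0.56 and -0.04.

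The subsets set by LOC110438492 leave a group with a single library on each side. One subset holds hm41 69 with WT 66 and WT 67, and the other holds hm41 70 and hm41 71 with WT 68. This comparison within subsets was chosen after seeing the data. The lone libraries, hm41 69 and WT 68, are also the lowest and the highest for the melanin genes on average, so an order within subsets rests on them. With TMM every hm41 library was below every WT library in both subsets for 6 of the 9 tested genes, tyr, tyrp1b, dct, pmela, pmelb and slc24a5, where 15.4% of all tested genes showed this. With library totals it was 1 of 9, tyrp1b, where 6.04% of all tested genes did. The retinal pigment epithelium markers showed it in 5 of 15 with TMM and in 0 of 15 with library totals. With a term for this split in the fit, the log2 fold change was -0.54 for tyrp1b (adjusted p = 0.238, unadjusted 0.00421, edgeR) and -0.75 for slc24a5 (adjusted p = 0.428, unadjusted 0.0240, edgeR). These were the 2 of 9 genes with an unadjusted p under 0.05 and a lower value in that fit, beside 4.44% of all tested genes, and 0 were called. What the split stands for is not given in the sources used here, and its part in these values was not tested.

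**Figure D5:**
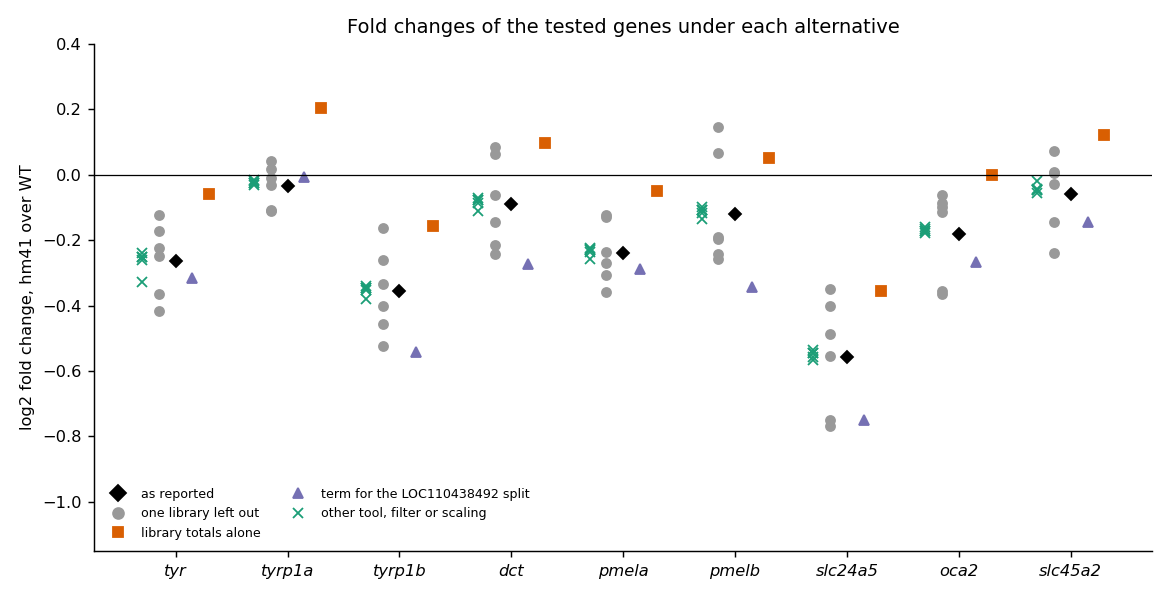
Log2 fold change of hm41 over WT of the 9 tested genes as reported (black) and under each alternative. The values under library totals alone, in orange, are higher for every gene, and tyrp1a, dct, pmelb and slc45a2 then lie above 0; tyr, tyrp1b, pmela, slc24a5 and oca2 stay below 0 in all 13 alternatives.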

How the data were processed

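The authors deposited expected counts per gene, which are estimates from reads and carry no scaling between libraries. Per the submitters' processing notes the tools were RSEM, TopHat and Bowtie2 and the build was GRCz11, without roles or order. Strand setting and annotation release: not given in the sources used here. Of 7 samples, 1 single-cell library of mixed genotype and age was not analysed here. Counts were rounded to whole numbers. All 19275 genes kept by edgeR's filterByExpr function were tested with edgeR 4.0.16 in R 4.3.3 (quasi-likelihood F-test, robust, TMM, no covariate, two-sided), with Benjamini-Hochberg adjustment over all of them at 0.05. Intervals are 95% intervals of that fit. DESeq2 1.42.0 and limma 3.58.1 (voom) were alternatives. Levels use TMM-scaled totals.

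The 10 genes and the lists were chosen with earlier results of these data known. Of 131 other symbols in 8 lists, 126 matched a row. The rule for named genes took the 10 genes, the called genes and the 3 smallest p-values of each list, and the 5 genes most like the melanin profile (log2 CPM, prior count 2); names outside it are marked, and spock1 was added as the gene of the design text. The RefSeq table of GRCz12tu served for names and chromosomes only. The fit was also run on counts simulated from the means and spread of these data. The changes put in were larger than those of the tested melanin genes, and the LOC110438492 split was not simulated. That run therefore says nothing on differences as small as theirs. All 6 library numbers differ and the labels name no pairs, so the samples were treated as unpaired.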

Additional observations from a re-analysis of the deposited data

How the results depend on the processing

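No paired analysis was run, because the labels name no pairs and do not say whether hm41 and WT pools shared a clutch. The count of melanin genes called stayed at 0 under all 13 alternatives, with an adjusted p of at least 0.238; DESeq2 gave slc24a5 none. The number of all genes called, 11 as reported, was 47 with library totals alone, 131 with no filter on low counts, 151 by DESeq2, 19 with a term for the LOC110438492 split, and 6 to 31 with 1 library left out (6 without hm41 70, 20 without hm41 69, 31 without WT 68). Higher and lower calls were 3 and 8 as reported, 32 and 15 with totals alone, 67 and 64 with no filter, 110 and 41 by DESeq2, and 7 and 12 with the split term. Totals alone moved the median of all genes to 0.20 and that of the melanin genes to -0.0020; relative to all genes the melanin median was then -0.20, against -0.16 as reported. With 1 library left out the melanin median ranged between -0.36 and -0.08.

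Of 117 values for the 9 tested genes, 13 turned above 0. With totals alone these were tyrp1a (0.20), dct (0.10), pmelb (0.053) and slc45a2 (0.12). With 1 library left out, tyrp1a ranged from -0.11 to 0.04, dct from -0.24 to 0.08, pmelb from -0.26 to 0.15 and slc45a2 from -0.24 to 0.07; the turned values came without hm41 71 (tyrp1a 0.02), WT 66 (tyrp1a 0.042), hm41 69 (dct 0.084, pmelb 0.065, slc45a2 0.0046), WT 67 (slc45a2 0.0096) or WT 68 (dct 0.065, pmelb 0.15, slc45a2 0.074). The cause was not tested. The others ranged from -0.77 to -0.35 (slc24a5), -0.52 to -0.16 (tyrp1b), -0.42 to -0.12 (tyr), -0.36 to -0.12 (pmela) and -0.36 to -0.06 (oca2), so all 9 moved by over 1.5 times when some library was left out. Of 26 other list genes named with a log2 fold change, 14 moved by as much. Among them were trpm7 (-0.65 to -0.21), trpm1a (-0.85 to -0.28), mitfb (-0.59 to -0.13), fhl2b (0.44 to 1.44), mbpa (0.26 to 0.62) and mpz (0.23 to 0.61). Changes of sign came in rpe65a (0.0090 without hm41 69, 0.14 without WT 68; range -0.39 to 0.14) and myo5aa (-0.14 without hm41 69, -0.024 without WT 68; range -0.14 to 0.17). Without the filter gch2 passed (adjusted p = 0.0429), and the settings that ended the call of aox5 or gave pnp4a one stand with their values above. Depth limits mitfa, with 20 counts in all.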
